A study of Mus musculus with 24 samples.

Results

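The mRNA of 10 genes that serve RNA polymerase I (Pol I) and the nucleolus was followed in mouse embryonic stem cells (mESCs) that lack single accessory subunits of the ISWI chromatin remodeling complexes. The genes were listed by symbol, because the accessory subunit TIP5 acts at ribosomal DNA (rDNA). They are Polr1a, Polr1b, Ubtf, Taf1c, Taf1d, Rrn3, Ncl, Fbl, Npm1 and Nop56. All 10 were found among the 24594 genes of the counts table, and all 10 passed the filter on low counts, which left 15682 genes to test.

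Ribosome production starts in the nucleolus, where Pol I copies the rDNA repeats into 1 long precursor RNA. UBTF keeps active repeats open, the SL1 complex with TAF1C and TAF1D recognizes the promoter, and RRN3 links SL1 to the polymerase. Small nucleolar ribonucleoproteins (snoRNPs) with fibrillarin (encoded by Fbl) and NOP56 then methylate the precursor at sites chosen by guide RNAs, and nucleolin (Ncl) and nucleophosmin (Npm1) are abundant nucleolar proteins of rRNA maturation and ribosome assembly. TIP5, encoded by Baz2a, joins the ATPase SNF2H in the complex NoRC, which is known for silencing part of the rDNA repeats. WSTF, encoded by Baz1b, joins SNF2H in the WICH complex, which has also been linked to Pol I transcription. Pol I itself makes no mRNA, so the counts describe the mRNAs of its machinery and not rRNA.

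RNA was sequenced from mESCs of the background 129S6/SvEvTac, grown on gelatin in medium with serum and LIF and with no further treatment. Each deletion line was made by CRISPR–Cas9 and is 1 clone: Rsf1Δ, WstfΔ, Tip5Δ, BptfΔ, Acf1Δ (gene Baz1a) and the line labelled Cecr2Δ. The 24 libraries fall into 5 batches with their own wild-type (WT) cells. Batch A holds 2 WT, 2 Rsf1Δ and 2 WstfΔ libraries. Batch B holds 2 WT and 2 Tip5Δ, batch C 2 WT and 2 BptfΔ, batch D 3 WT and 3 labelled Cecr2Δ, and batch E 2 WT and 2 Acf1Δ. Rsf1Δ and WstfΔ share their WT libraries. With 1 clone per line, the deletion and what else sets that clone apart cannot be told apart.

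Depth was between 13.4 and 36.7 M counts per library, and the lowest count of any of the 10 genes in any library was 370 (Taf1c). Levels are given as normalized CPM (counts per M counts of the library), scaled with TMM factors. The mRNA of the targeted gene fell in 4 lines, by a log2 fold change of 2.26 for Rsf1, 2.40 for Baz1b, 1.97 for Bptf and 1.72 for Baz1a. Baz2a mRNA was at 421 and 429 normalized CPM in Tip5Δ against 517 and 499 in WT (adjusted p = 0.0533, edgeR), so it does not check that label. Cecr2 mRNA was higher, at 142 to 149 normalized CPM in the libraries labelled Cecr2Δ against 107 to 121 in WT. This mRNA level does not bear out that label, so the libraries are named by it throughout. An mRNA level alone does not tell whether the protein is made. The study detected no protein of the deleted subunit on western blots in any deletion line and also checked clones by DNA sequencing. The counts can show neither. The 6 pluripotency markers summed to between 2527 and 4117 normalized CPM in every library, 6 fibroblast markers to at most 32.5 and 5 trophectoderm markers to at most 76.3. These markers also moved with the lines. In bulk RNA, fewer cells of a type and less RNA per cell cannot be told apart.

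Batch C stood apart from the other batches before any line was compared. Its 4 libraries held 3288 to 4824 normalized CPM of Rpph1 and 584 to 691 of Rmrp, RNAs that lack a poly(A) tail, against at most 3.39 and 2.33 in the other 20 libraries. Within the batch, both BptfΔ libraries lay above both WT libraries, with Rpph1 at 4034 and 4824 against 3499 and 3288 (log2 fold change 0.38, adjusted p = 8.24e-05, edgeR) and Rmrp at 686 and 691 against 584 and 645 (0.17, adjusted p = 0.244). The part of this in the changes of BptfΔ was not tested. Several of the 10 genes differed between batch C and the others. Ncl was at 2413 and 2494 normalized CPM in WT cells of batch C and between 5707 and 8869 in the other 9 WT libraries. Taf1d was at 512 and 522 against 115 to 174, and Rrn3 at 568 and 557 against 274 to 342. Fbl was at 71.4 and 75.3 against 99.0 to 152. The WT libraries of batch C did not overlap the other WT libraries for these 4 genes or for Polr1a, Polr1b and Nop56, which makes 7 of the 10, where 30.2% of all tested genes did not overlap. Whether the RNA content of the batch has a part in this was not tested.

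All 10 genes differed between the WT cells of the 5 batches (edgeR's quasi-likelihood test of the batch terms, adjusted p from 3.65e-17 for Taf1d to 0.000897 for Npm1). The share of all tested genes that differed was 73.1%, so this is no property of the 10 genes. The mean of the highest batch was 4.35-fold that of the lowest for Taf1d, 3.33-fold for Ncl and 1.25-fold for Ubtf. Without batch C these ratios were 1.29, 1.22 and 1.25. The steadiest of the 10 among WT cells was then Nop56, a core protein of box C/D snoRNPs, at 1.14-fold. Each line was therefore compared with the WT libraries of its own batch.

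Compared per kilobase of gene width, Npm1 and Ncl led the 10 genes in WT cells by a wide margin. Npm1 had a median of 867 normalized CPM per kilobase over the 11 WT libraries (range 806 to 1255) and Ncl a median of 675 (237 to 871). Their ranges overlapped. Next came Nop56 at a median of 97.8 (86.0 to 117), Rrn3 at 76.1 (63.5 to 131), Ubtf at 64.9 (56.4 to 75.8) and Fbl at 61.2 (37.7 to 80.3), each of which overlapped its neighbours in this order. Polr1b followed at 35.8 (22.0 to 48.3), Polr1a at 20.9 (14.9 to 27.7), Taf1d at 16.9 (13.5 to 61.2) and Taf1c at 10.6 (7.19 to 15.4). Ranges of neighbours overlapped here too. Only Ncl and Nop56 were neighbours whose ranges did not overlap, so the order separates Npm1 and Ncl from the other 8 genes. The width is the one in the authors' table, from 1895 bases for Fbl to 11871 for Polr1a, and a width that counts rarely used exons lowers the value per kilobase.

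**Figure D1:**
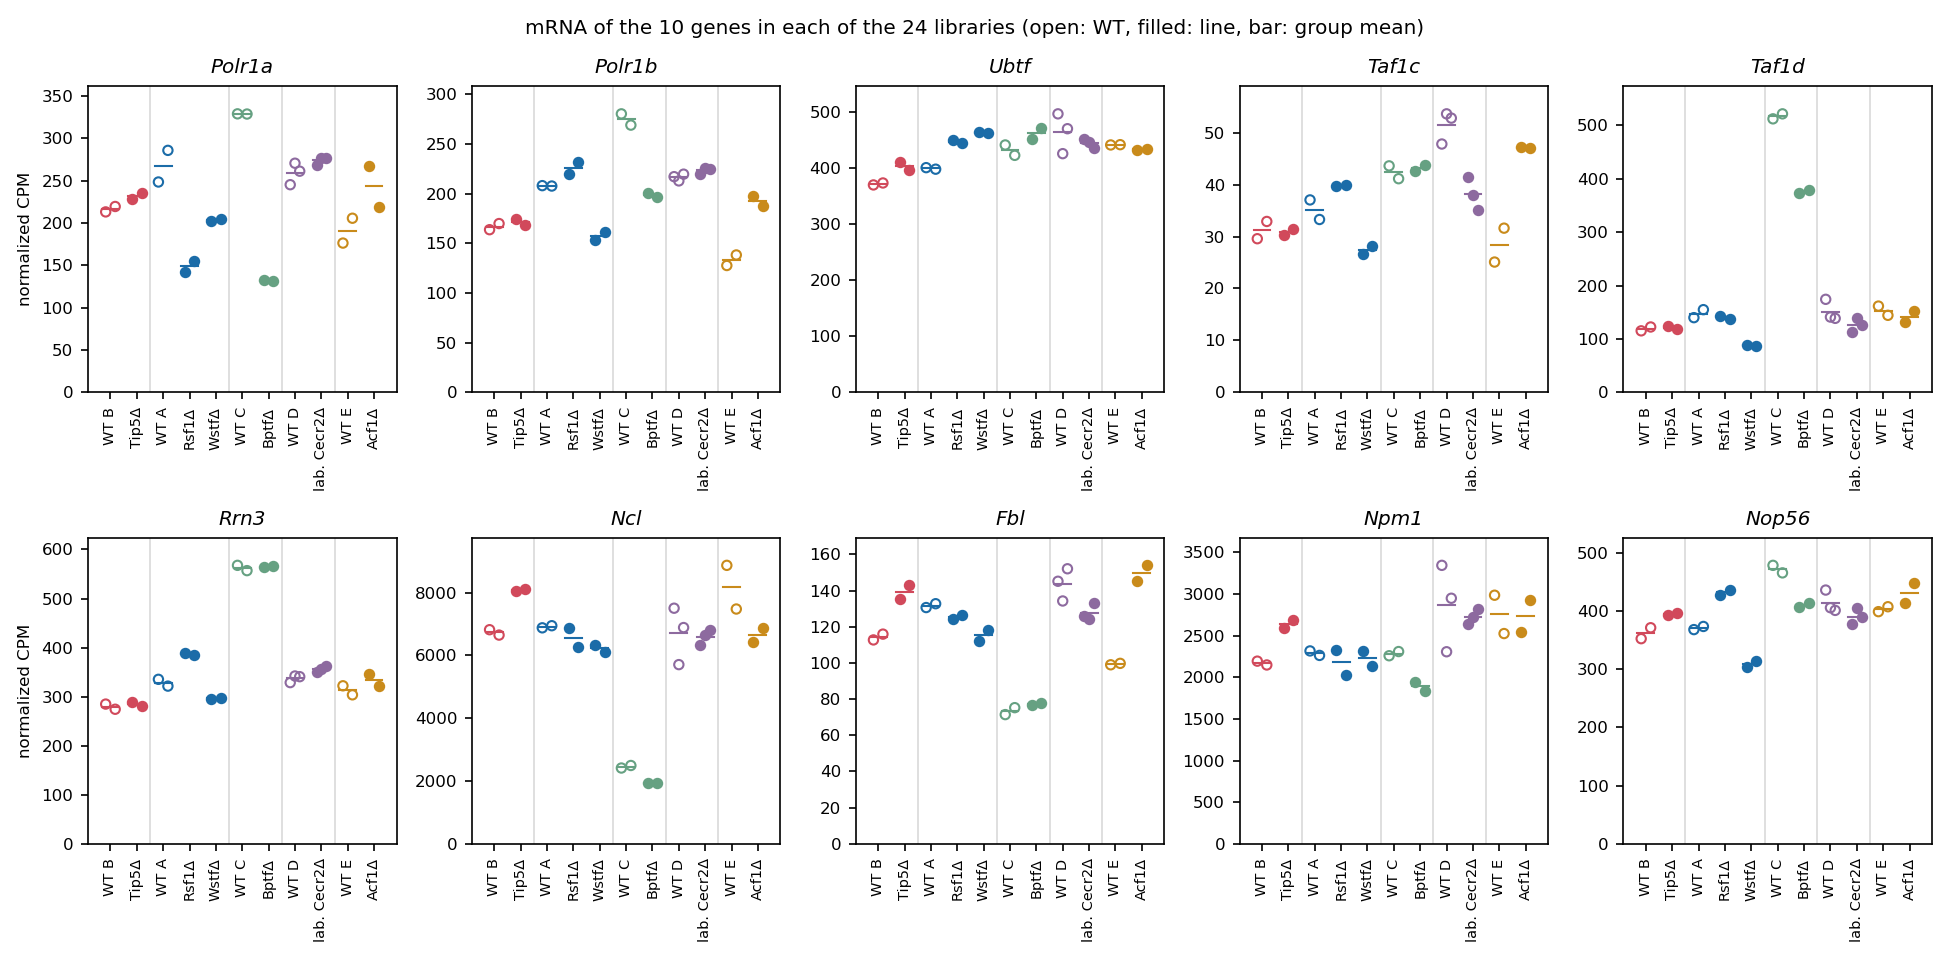
Normalized CPM (vertical axis, from 0) of the 10 genes in each of the 24 libraries, grouped by batch along the horizontal axis. Open points are WT libraries, filled points are libraries of a line, short bars are group means and colours mark batches. Polr1a sits at 142 and 155 in Rsf1Δ and at 132 and 131 in BptfΔ, below its 11 WT libraries, while Taf1d, Rrn3, Ncl and Fbl in batch C lie apart from the other batches in WT and line alike.

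Across the 6 lines, 22 of the 60 pairs of gene and line passed the test, 8 higher and 14 lower, with an adjusted p under 0.01 from edgeR's quasi-likelihood test over all 15682 genes. Only 1 of these also passed the study's minimum of a log2 fold change over 1, Polr1a in BptfΔ. In 17 of the 22 the mean of the line lay inside the range of all 11 WT libraries. That range includes batch C, whose WT libraries did not overlap the others for 7 of the 10 genes, so it is wide. Of the 10 genes, 9 were called in at least 1 line and Npm1 in none. With any 1 library of a line or its WT left out, fewer of all genes were called in that line. Whichever 1 library of the line or its WT was left out, 10 of the 22 kept their call and 12 lost it at least once.

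In Tip5Δ, the line for which the genes were listed, 1 of the 10 rose and none fell. Over all genes, 2.84% rose and 6.23% fell in this line. The gene was Fbl, the methyltransferase of box C/D snoRNPs. It was at 135 and 143 normalized CPM in Tip5Δ and at 113 and 116 in WT. Both Tip5Δ libraries lay above both WT libraries, and the log2 fold change was 0.28 ± 0.061 (SE, adjusted p = 0.00159, edgeR, n = 2 against 2). The call did not hold without WT replicate 1 (adjusted p = 0.0301), WT replicate 2 (0.0115) or Tip5Δ replicate 2 (0.0490).

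Ncl and Npm1 had shifts in Tip5Δ of the same size that did not pass the test. Ncl was at 8061 and 8121 normalized CPM against 6819 and 6648 in WT, a log2 fold change of 0.27 ± 0.083 (SE, adjusted p = 0.0285, edgeR). Npm1 was at 2597 and 2692 against 2195 and 2149, or 0.28 ± 0.10 (SE, adjusted p = 0.0639). For both genes, as for Fbl, the Tip5Δ libraries did not overlap the WT libraries of batch B. Nop56 (0.13), Ubtf (0.12) and Polr1a (0.10) also had both Tip5Δ libraries above both WT libraries, and Polr1b, Taf1d, Rrn3 and Taf1c overlapped with WT and had log2 fold changes from -0.02 to 0.04. The median log2 fold change of the 10 genes was 0.11, beside -0.01 for all genes tested.

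The number of the 10 that passed in Tip5Δ differed between fits. With the 4 libraries of batch B alone, 5 rose and none fell, where 11.5% of all genes rose and 13.1% fell. The 5 were Fbl, Ncl, Npm1, Nop56 and Ubtf. In that fit the adjusted p was 7.32e-14 for Ncl, 8.00e-14 for Npm1, 0.00348 for Nop56 and 0.00579 for Ubtf, with log2 fold changes of 0.26, 0.28, 0.12 and 0.11. With no filter on low counts 3 rose, the added genes being Ncl and Npm1, where 3.61% of all genes rose and 5.12% fell. With the study's minimum of a log2 fold change over 1 none of the 10 passed, where 2.72% of all genes did. Primitive endoderm markers fell in the same libraries: all 6 were lower, with a summed level of 71.9 to 78.7 normalized CPM against 326 to 345 in WT. Their part in the values of the 10 genes was not tested.

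To ask whether the response of Tip5Δ differed from that of the other lines, its change was tested against the mean change of the 5 others. Polr1a and Ncl passed, both as higher in Tip5Δ, where 8.08% of all genes did, and none was lower, where 7.85% did. The difference was 0.53 ± 0.088 on the log2 scale for Polr1a (SE, adjusted p = 6.17e-05, edgeR) and 0.44 ± 0.092 for Ncl (SE, adjusted p = 0.000691). Polr1a fell in 3 of the other lines, and in Tip5Δ it was at 229 and 236 normalized CPM against 213 and 219.5 in WT (log2 fold change 0.10 ± 0.080, SE). Without BptfΔ the difference of Polr1a was 0.30 and did not pass (adjusted p = 0.0159), and Ncl alone passed.

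In each of the other 5 lines 2 to 6 of the 10 genes passed. With only the own WT libraries 3 passed in Acf1Δ, 1 under the Cecr2Δ label and 5 in Tip5Δ, where 16.9%, 13.6% and 24.6% of all genes passed, so the counts of the lines are not in a fixed order. In Rsf1Δ 2 rose (Rrn3, Nop56) and 1 fell (Polr1a), where 7.45% of all genes rose and 13.1% fell. In the libraries labelled Cecr2Δ none rose and 2 fell (Taf1c, Taf1d), where 9.52% rose and 8.83% fell. In Acf1Δ 4 rose (Taf1c, Fbl, Polr1b, Polr1a) and 1 fell (Ncl), where 15.1% rose and 16.7% fell. In WstfΔ 1 rose (Ubtf) and 5 fell (Taf1d, Polr1b, Polr1a, Taf1c, Nop56), where 16.4% rose and 18.3% fell. In BptfΔ none rose and 5 fell (Polr1a, Polr1b, Taf1d, Ncl, Nop56), where 21.4% rose and 20.2% fell. Primitive endoderm markers moved in these lines too. All 6 fell in Rsf1Δ (summed level 136 to 144 normalized CPM against 322 to 329 in WT), in WstfΔ (131 to 137 against the same WT), in BptfΔ (13.5 to 13.8 against 140.3 to 149) and under the Cecr2Δ label (28.7 to 32.8 against 97.5 to 114), while in Acf1Δ 3 rose and 1 fell. Of the 6 pluripotency markers, 6 rose in Rsf1Δ and in WstfΔ, 5 in BptfΔ, 4 under the Cecr2Δ label and 2 in Acf1Δ, where 2 fell. Of 4 fibroblast markers tested, 3 fell in each line but the one labelled Cecr2Δ, where none passed, and 1 rose in WstfΔ. Of 4 trophectoderm markers tested, 3 fell in BptfΔ 2 each in Rsf1Δ, Acf1Δ and WstfΔ and 1 each in Tip5Δ and under the Cecr2Δ label, and 1 rose in WstfΔ and under that label. The part of these markers in the counts was not tested. Counts from 10 genes are coarse.

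With the minimum of a log2 fold change over 1, none of the 10 passed in Rsf1Δ, Acf1Δ or WstfΔ or under the Cecr2Δ label, where 5.91%, 4.45%, 10.4% and 3.11% of all genes did. In BptfΔ 1 of the 10 passed, where 13.8% of all genes did. The medians of the 10 log2 fold changes were 0.02 in Rsf1Δ, 0.09 in Acf1Δ, -0.07 under the Cecr2Δ label, -0.23 in WstfΔ and -0.24 in BptfΔ. Over all genes tested the medians lay between -0.03 and 0.01.

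**Figure D2:**
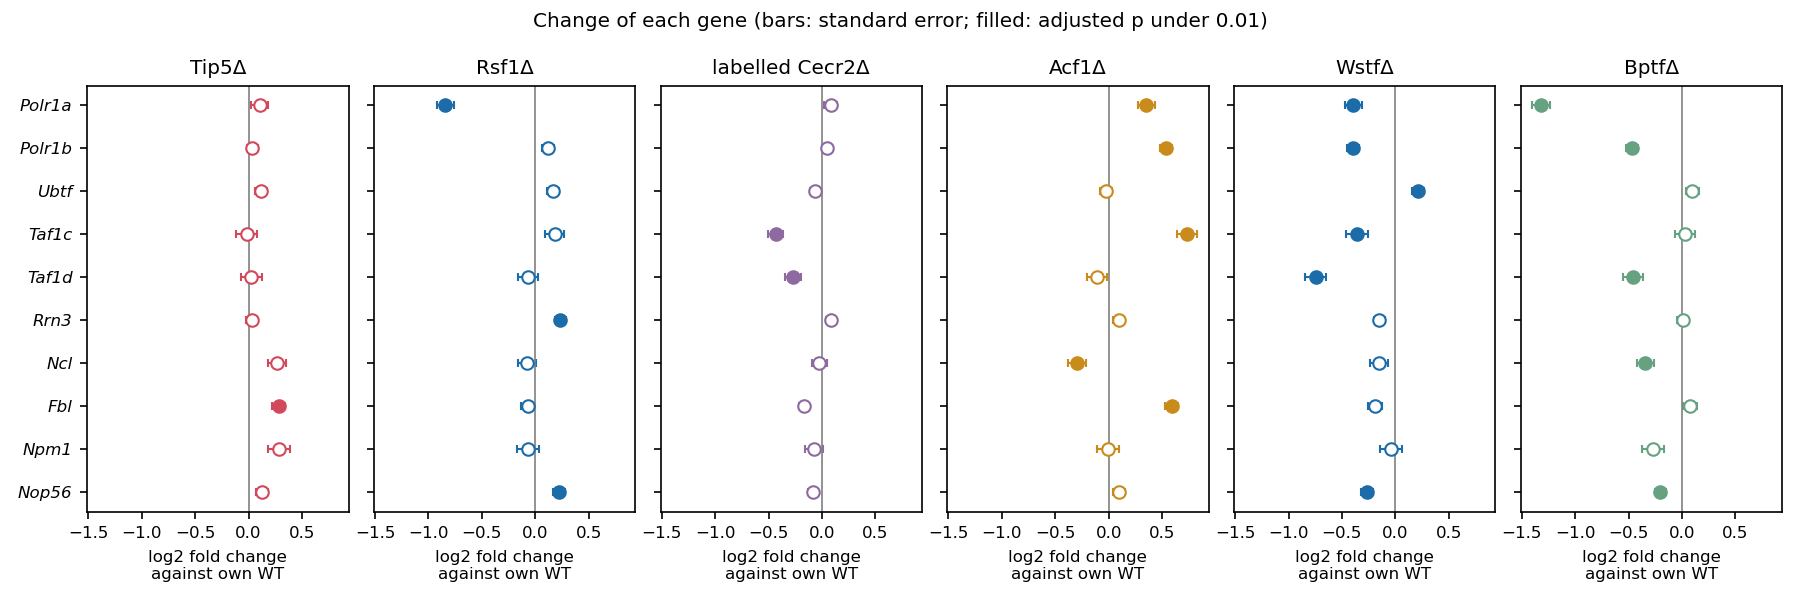
Log2 fold change of each of the 10 genes (rows) in each of the 6 lines (panels) against the WT libraries of the same batch; bars are standard errors and filled points have an adjusted p under 0.01 (edgeR). Tip5Δ has 1 filled point, Fbl at 0.28, and the largest change is Polr1a in BptfΔ at -1.32.

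Polr1a (gene ID 20019, mm10 chr6:71909053-71979435) encodes the largest subunit of Pol I, which holds part of its catalytic centre. In Rsf1Δ it was at 142 and 155 normalized CPM against 248 and 286 in WT. In BptfΔ it was at 132 and 131 against 329 in both WT libraries. Neither line overlapped any of the 11 WT libraries. The log2 fold change was -0.84 ± 0.081 in Rsf1Δ (SE, adjusted p = 4.35e-09, edgeR) and -1.32 ± 0.082 in BptfΔ (SE, adjusted p = 3.10e-13), where the level was 0.401-fold that of WT. Both calls held whichever library was left out.

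Genes on both sides of Polr1a moved with it in these 2 lines. Of the 20 nearest tested genes, 10 on each side, 18 fell and none rose in Rsf1Δ, with a median log2 fold change of -0.95, and 18 fell and none rose in BptfΔ, with a median of -0.80. In Tip5Δ 3 of these 20 fell and 1 rose (median 0.11), in the libraries labelled Cecr2Δ 2 fell and 6 rose (median 0.07), in Acf1Δ 1 fell and 8 rose (median 0.18), and in WstfΔ 5 fell and 4 rose (median -0.12). Among them are Ptcd3, a mitochondrial ribosome protein gene next to Polr1a, at -0.89 in Rsf1Δ and -1.56 in BptfΔ, and Immt, a mitochondrial inner membrane gene, at -0.87 and -0.95. Around the other 9 genes the median of the 20 neighbours lay between -0.58 and 0.34 over the 6 lines. For the genes called in WstfΔ it was -0.58 around Polr1b, -0.25 around Nop56, 0.22 around Ubtf, -0.20 around Taf1c and -0.13 around Taf1d. The genes themselves were at -0.40, -0.26, 0.21, -0.36 and -0.75. In BptfΔ it was -0.19 around Polr1b, -0.30 around Ncl, -0.09 around Taf1d and -0.01 around Nop56. There the genes were at -0.47, -0.34, -0.46 and -0.20. The stretches of neighbours of Polr1b and Nop56 overlap. The neighbours were examined after the values of Polr1a were known.

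**Figure D3:**
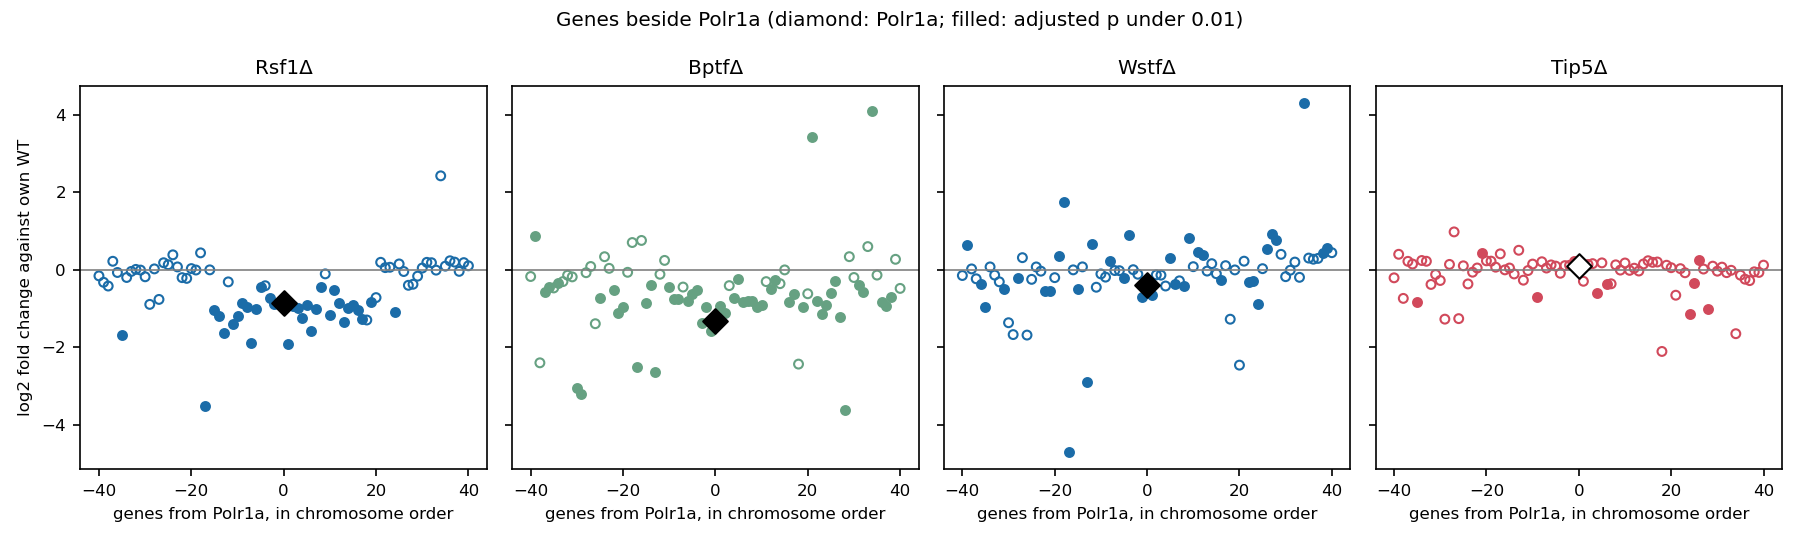
Log2 fold change against own WT of Polr1a (diamond) and of 40 tested genes on each side of it in chromosome order, in 4 lines; filled symbols have an adjusted p under 0.01 (edgeR). In Rsf1Δ the lowered genes form a block around Polr1a that ends on both sides, in BptfΔ most genes of the window lie below 0, and in WstfΔ and Tip5Δ the genes around Polr1a lie on both sides of 0.

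In WstfΔ, Polr1a was at 203 and 205 normalized CPM against the same WT values of 248 and 286. The groups did not overlap. The log2 fold change was -0.39 ± 0.081 (SE, adjusted p = 0.000252, edgeR), and without WT replicate 2 it was -0.29 (adjusted p = 0.0168). In Acf1Δ Polr1a was at 268 and 219 against 176 and 206 in WT. The lower Acf1Δ library exceeded the higher WT library only slightly. The log2 fold change was 0.35 ± 0.080 (SE, adjusted p = 0.000853), and it lost its call without WT replicate 1 (0.24, adjusted p = 0.0437) or Acf1Δ replicate 1 (0.20, adjusted p = 0.0483).

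Polr1b (20017, chr2:129100970-129128060) encodes the second-largest subunit, which completes the catalytic centre. It was at 153 and 161 normalized CPM in WstfΔ against 208 and 208 in WT, and at 200.2 and 197 in BptfΔ against 280.1 and 269. In Acf1Δ it was at 198 and 187 against 128 and 138. None of these groups overlapped. The log2 fold changes were -0.40 ± 0.056 in WstfΔ (SE, adjusted p = 1.61e-06, edgeR), -0.47 ± 0.056 in BptfΔ (SE, adjusted p = 7.06e-08) and 0.54 ± 0.055 in Acf1Δ (SE, adjusted p = 2.60e-08). All 3 calls held whichever library was left out. In Rsf1Δ, where Polr1a fell, Polr1b was at 0.12 (adjusted p = 0.111), so the mRNAs of the 2 large subunits did not move together there.

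The other 11 Pol I subunits, several of which are shared with RNA polymerases II and III, were counted from a list. In Acf1Δ 7 of them rose and none fell, where 15.1% of all genes rose and 16.7% fell, with a median log2 fold change of 0.47. Znrd1, whose product takes part in RNA cleavage by Pol I, was at 109.6 and 122 normalized CPM in Acf1Δ against 59.6 and 61.6 in WT (log2 fold change 0.94 ± 0.077, SE, adjusted p = 5.10e-10, edgeR). Polr2k, a small shared subunit, was at 8.88 and 9.56 against 5.53 and 4.92 (0.82 ± 0.15, SE, adjusted p = 0.000122). With Polr1a and Polr1b, 9 of the 13 subunits rose in Acf1Δ.

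In Rsf1Δ 3 of the 11 rose and none fell, among them Znrd1 (0.66) and Polr1c (0.28). In WstfΔ 1 rose, Znrd1 (0.46), and 3 fell, among them Polr1d (-0.42). In BptfΔ 1 rose, Znrd1 (0.40), and 2 fell, among them Polr1e (-0.39). In the libraries labelled Cecr2Δ 1 fell, Polr1d (-0.28). In Tip5Δ none passed (median 0.07), where 2.84% of all genes rose and 6.23% fell. Over all genes 7.45% rose in Rsf1Δ, 16.4% rose and 18.3% fell in WstfΔ, 21.4% rose and 20.2% fell in BptfΔ and 8.83% fell under the Cecr2Δ label, so the counts in WstfΔ, BptfΔ and under that label are near or below the background. Znrd1 rose in WstfΔ and BptfΔ, where Polr1a and Polr1b fell.

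Taf1c (21341, chr8:119597974-119605206) and Taf1d (75316, chr9:15305953-15316997) encode subunits of SL1, the complex that brings Pol I to its promoter. Taf1c is the lowest of the 10 genes, at 39.0 ± 9.59 normalized CPM (SD, n = 11 WT libraries). In Acf1Δ it was at 47.2 and 47.1 against 25.1 and 31.6 in WT, a log2 fold change of 0.73 ± 0.092 (SE, adjusted p = 4.86e-07, edgeR). This was the largest rise among the 60 pairs, and the groups did not overlap.

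In the libraries labelled Cecr2Δ, Taf1c was at 41.4, 38.0 and 35.1 normalized CPM against 47.8, 53.6 and 52.8 in WT. All 3 lay below all 3 WT libraries (log2 fold change -0.43 ± 0.072, SE, adjusted p = 3.99e-05, edgeR). In WstfΔ it was at 26.7 and 28.2 against 37.1 and 33.3, or -0.36 ± 0.10 (SE, adjusted p = 0.00473). The calls in Acf1Δ and under the Cecr2Δ label held whichever library was left out. The call in WstfΔ did not hold without WT replicate 1 (adjusted p = 0.0701), WstfΔ replicate 1 (0.0572) or WstfΔ replicate 2 (0.0195).

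Taf1d fell in 3 lines. In WstfΔ it was at 88.4 and 87.1 normalized CPM against 139.9 and 155 in WT, and in BptfΔ at 374 and 378 against 512 and 522. Under the Cecr2Δ label it was at 112, 138 and 125 against 174, 141 and 139. The groups did not overlap in any of the 3, although under the Cecr2Δ label the closest libraries were 138 and 139. The log2 fold changes were -0.75 ± 0.099 in WstfΔ (SE, adjusted p = 6.43e-07, edgeR), -0.46 ± 0.092 in BptfΔ (SE, adjusted p = 0.000150) and -0.27 ± 0.077 under the Cecr2Δ label (SE, adjusted p = 0.00879).

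The first 2 of these held whichever library was left out. The third lost its call without WT replicate 1 (-0.16, adjusted p = 0.109) and without replicates 1 (0.0776) or 3 (0.0294) of the labelled libraries. In RefSeq, Taf1d overlaps 10 other genes, 6 of them snoRNA genes and 2 of them the protein-coding genes Cep295 and 4931406C07Rik. Taf1c overlaps the protein-coding gene Dnaaf1. Whether reads of these neighbours were counted for Taf1d or Taf1c cannot be told from the counts. Of 8 listed RNAs that host snoRNAs, 6 fell and 1 rose in WstfΔ, where 18.3% of all genes fell and 16.4% rose, with falls of Snhg5 (-0.78) and Gas5 (-0.44), while in BptfΔ 1 of the 8 fell, where 20.2% of all genes did.

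Rrn3 (106298, chr16:13780699-13814841) encodes the growth-regulated factor that makes Pol I competent to start. It rose in 1 line, Rsf1Δ, at 388 and 384 normalized CPM against 335 and 321 in WT. The groups did not overlap, and the log2 fold change was 0.23 ± 0.052 (SE, adjusted p = 0.000943, edgeR). The call was lost without WT replicate 2 (adjusted p = 0.0259) or Rsf1Δ replicate 1 (0.0121). In BptfΔ it was at 563 and 566 against 568 and 557, the smallest shift of any of the 10 genes in that line (log2 fold change 0.01 ± 0.052, SE).

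Ubtf (21429, chr11:102304560-102323649) encodes the HMG-box protein that binds along active rDNA. It was the one gene of the 10 to rise in WstfΔ, at 464 and 462 normalized CPM against 400.4 and 398 in WT. The log2 fold change was 0.21 ± 0.057 (SE, adjusted p = 0.00327, edgeR). This call was lost whichever of the 4 libraries was left out, with adjusted p from 0.0199 to 0.0256. In the other 5 lines Ubtf had log2 fold changes from -0.06 to 0.16 and did not pass.

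Of 5 other initiation and termination factors, Taf1a, a further SL1 subunit, went the way of Taf1c in 3 lines. It fell in WstfΔ (log2 fold change -0.61 ± 0.084, SE, adjusted p = 1.09e-06, edgeR) and under the Cecr2Δ label (-0.36 ± 0.061, SE, adjusted p = 5.78e-05) and rose in Acf1Δ (0.34 ± 0.077, SE, adjusted p = 0.000806). It also fell in BptfΔ (-0.62), where Taf1c was at 0.03. Cavin1, first described as a Pol I transcript release factor and better known as a coat protein of caveolae, was at 129.9 and 123 normalized CPM in BptfΔ against 42.5 and 42.7 in WT (1.57 ± 0.074, SE, adjusted p = 1.04e-15). Cavin1 also rose in WstfΔ (0.59) and Tip5Δ (0.34) and fell under the Cecr2Δ label (-0.65). In Tip5Δ it was the only gene called among the 116 listed pathway genes beyond the 10.

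The promoters of the initiation factors were read from RefSeq (GRCm38.p6), which held an entry for 8 of the 10 genes. Fbl and Npm1 had none. An entry spans 250 bases before and 50 after a transcript start, and 4 motifs were searched on both strands. CACGTG, the E-box that MYC and its partner MAX bind among other factors, was found in Rrn3 and in 7.15% of all 32851 promoters. CCGGAAG, the core bound by ETS factors, was found in Rrn3 and Taf1c and in 8.86% of promoters. GCATGCGC, bound by NRF1, was found in Ubtf and in 2.71%, and CTCGCGAGA in none of the 8 and in 0.676%. A match describes the letters and does not show a bound site.

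The 250 bases before the start are shown for Rrn3, the one gene of these 8 with an E-box, and for Taf1c, chosen after its values were seen because it changed in 3 lines. The stretch of Rrn3 lies at chr16:13780449-13780698 on the plus strand, and capitals mark its 2 CACGTG matches. The stretch of Taf1c lies at chr8:119605207-119605456 on the minus strand, and capitals mark CTTCCGG, the reverse complement of CCGGAAG. Both are written 5′ to 3′ on the strand of the gene.
Rrn3: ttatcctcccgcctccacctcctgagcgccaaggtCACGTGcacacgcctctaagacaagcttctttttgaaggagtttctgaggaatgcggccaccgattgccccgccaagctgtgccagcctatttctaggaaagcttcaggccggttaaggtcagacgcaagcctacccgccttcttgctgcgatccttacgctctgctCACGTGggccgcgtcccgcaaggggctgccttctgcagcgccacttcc
Taf1c: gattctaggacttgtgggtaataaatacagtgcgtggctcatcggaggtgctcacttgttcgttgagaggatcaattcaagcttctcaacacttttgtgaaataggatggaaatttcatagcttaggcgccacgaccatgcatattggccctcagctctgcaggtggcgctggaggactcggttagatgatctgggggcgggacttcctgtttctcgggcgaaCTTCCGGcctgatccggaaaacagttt

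Myc and Mycn, whose products bind E-boxes, moved in several lines. In BptfΔ Myc was at 26.9 and 27.8 normalized CPM against 83.7 and 85.5 in WT, and Mycn at 64.4 and 66.5 against 210.1 and 210.4. In WstfΔ Myc was at 94.8 and 91.2 against 138 and 130.3, and Mycn at 145 and 148 against 275 and 251. Both genes fell in these 2 lines. Their part in the values of the 10 genes was not tested. In Acf1Δ Myc rose to 181 and 169 from 85.3 and 90.9 (log2 fold change 0.99 ± 0.067, SE, adjusted p = 1.15e-11, edgeR), while Mycn had a log2 fold change of -0.06. Under the Cecr2Δ label Mycn rose (0.44, adjusted p = 5.64e-07, edgeR), at 287, 296 and 275 against 192, 219 and 222, and Myc was at -0.15 (adjusted p = 0.0318). In Tip5Δ neither passed. In Rsf1Δ Myc rose (0.34, adjusted p = 0.000232) and Mycn fell (-0.30, adjusted p = 0.00110), and Rrn3 with its E-boxes rose there (0.23). Rrn3 had a log2 fold change of 0.01 in BptfΔ, -0.15 in WstfΔ (adjusted p = 0.0225) and 0.09 in Acf1Δ, and passed in none of these 3.

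Fbl (14113, chr7:28168893-28179269) rose in Acf1Δ as well as in Tip5Δ. It was at 145 and 154 normalized CPM in Acf1Δ against 99.0 and 99.8 in WT, with no overlap. The log2 fold change was 0.59 ± 0.061 (SE, adjusted p = 2.70e-08, edgeR), and it held whichever library was left out. Under the Cecr2Δ label Fbl was at 126, 124 and 133 against 145, 134 and 152 and just missed the threshold (-0.17 ± 0.049, SE, adjusted p = 0.0102).

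Nop56 (67134, chr2:130274367-130279313) had smaller shifts. It was at 428 and 436 normalized CPM in Rsf1Δ against 368 and 373 in WT, and at 303 and 314 in WstfΔ against the same WT libraries. In BptfΔ it was at 407 and 414 against 478 and 465. No groups overlapped. The log2 fold changes were 0.22 ± 0.056 in Rsf1Δ (SE, adjusted p = 0.00317, edgeR), -0.26 ± 0.056 in WstfΔ (SE, adjusted p = 0.000361) and -0.20 ± 0.056 in BptfΔ (SE, adjusted p = 0.00357). The calls in Rsf1Δ (adjusted p from 0.0148 to 0.0333) and BptfΔ (0.0125 to 0.0375) were lost whichever of the 4 libraries was left out, and the call in WstfΔ without WstfΔ replicate 1 (0.0122). Nop56 hosts snoRNA genes, Snord57 and Snord110 among them, which were at under 1 normalized CPM in every library.

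Of the 10 other snoRNP genes 3 fell in WstfΔ, 5 in BptfΔ and 3 under the Cecr2Δ label, where 18.3%, 20.2% and 8.83% of all genes fell. In Acf1Δ 3 rose and in Rsf1Δ 1, where 15.1% and 7.45% of all genes rose, so the count in Rsf1Δ is near the background. Nolc1, a chaperone of snoRNPs, fell in WstfΔ (-0.43) and BptfΔ (-0.56), and Naf1 (-0.31) and Gar1 (-0.20), of box H/ACA snoRNPs, fell in WstfΔ and under the Cecr2Δ label in turn. Rrp9, a protein of the U3 snoRNP, rose in Rsf1Δ (0.33) and Acf1Δ (0.44) and fell under the Cecr2Δ label (-0.29) and in BptfΔ (-0.53). In Tip5Δ none of the 10 passed, with a median log2 fold change of 0.11. Fbl was thus the one snoRNP protein gene of the 12 called in Tip5Δ, where 2.84% of all genes rose and 6.23% fell. With the libraries of batch B alone Nop56 was called as well.

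Ncl (17975, chr1:86344719-86359455) and Npm1 (18148, chr11:33152498-33164142) are the most abundant of the 10 mRNAs. Ncl was at 1920.4 and 1948 normalized CPM in BptfΔ against 2413 and 2494 in WT, and at 6427 and 6869.6 in Acf1Δ against 8869 and 7478. The groups did not overlap in either line. The log2 fold change was -0.34 ± 0.083 in BptfΔ (SE, adjusted p = 0.00108, edgeR) and -0.30 ± 0.083 in Acf1Δ (SE, adjusted p = 0.00481).

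The call of Ncl in BptfΔ was lost without WT replicate 2 (adjusted p = 0.0148) or BptfΔ replicate 1 (0.0128). That in Acf1Δ was lost without WT replicate 1, the library at 8869 (-0.17, adjusted p = 0.165), or Acf1Δ replicate 1 (0.0436). Ncl hosts the snoRNA genes Snora75 and Snord82, both at under 1.23 normalized CPM in every library. Npm1 passed in no line. Its log2 fold changes ran from -0.27 in BptfΔ (adjusted p = 0.0297) to 0.28 in Tip5Δ, and its WT libraries of batch D alone spread from 2307 to 3346 normalized CPM.

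Beyond the 10 genes, 116 further genes of the pathway were counted, in lists of Pol I subunits, initiation and termination factors, snoRNP proteins, processing factors of the small (39) and large (42) ribosomal subunit, and other nucleolar proteins. All 116 were tested. In BptfΔ 67 fell (57.8%, beside 20.2% of all genes) and 3 rose (2.59%, beside 21.4%). In WstfΔ 48 fell (41.4%, beside 18.3%) and 6 rose (5.17%, beside 16.4%). In Acf1Δ 46 rose (39.7%, beside 15.1%) and 4 fell (3.45%, beside 16.7%). In Rsf1Δ 17 rose (14.7%, beside 7.45%) and none fell, beside 13.1%. Under the Cecr2Δ label 15 fell (12.9%, beside 8.83%) and 2 rose (1.72%, beside 9.52%). In Tip5Δ 1 rose and none fell, beside 2.84% and 6.23% of all genes.

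The medians were -0.32 in BptfΔ, -0.20 in WstfΔ, -0.07 under the Cecr2Δ label, 0.07 in Tip5Δ, 0.09 in Rsf1Δ and 0.11 in Acf1Δ on the log2 scale. The count in Rsf1Δ dropped to 9 without WT replicate 2 and to 10 without Rsf1Δ replicate 2. That under the Cecr2Δ label dropped to 8 without labelled replicate 2, to 9 without WT replicate 3 and to 11 without labelled replicate 3, and that in WstfΔ to 35 without WstfΔ replicate 2. In Tip5Δ the count was 29 with the 4 libraries of batch B alone, where 26 rose and 3 fell, beside 11.5% and 13.1% of all genes in that fit. It was 11 with no filter on low counts, all higher, beside 3.61%. The count in Acf1Δ was lower with only the own WT libraries, where 16.9% of all genes passed, as given at the end.

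**Figure D4:**
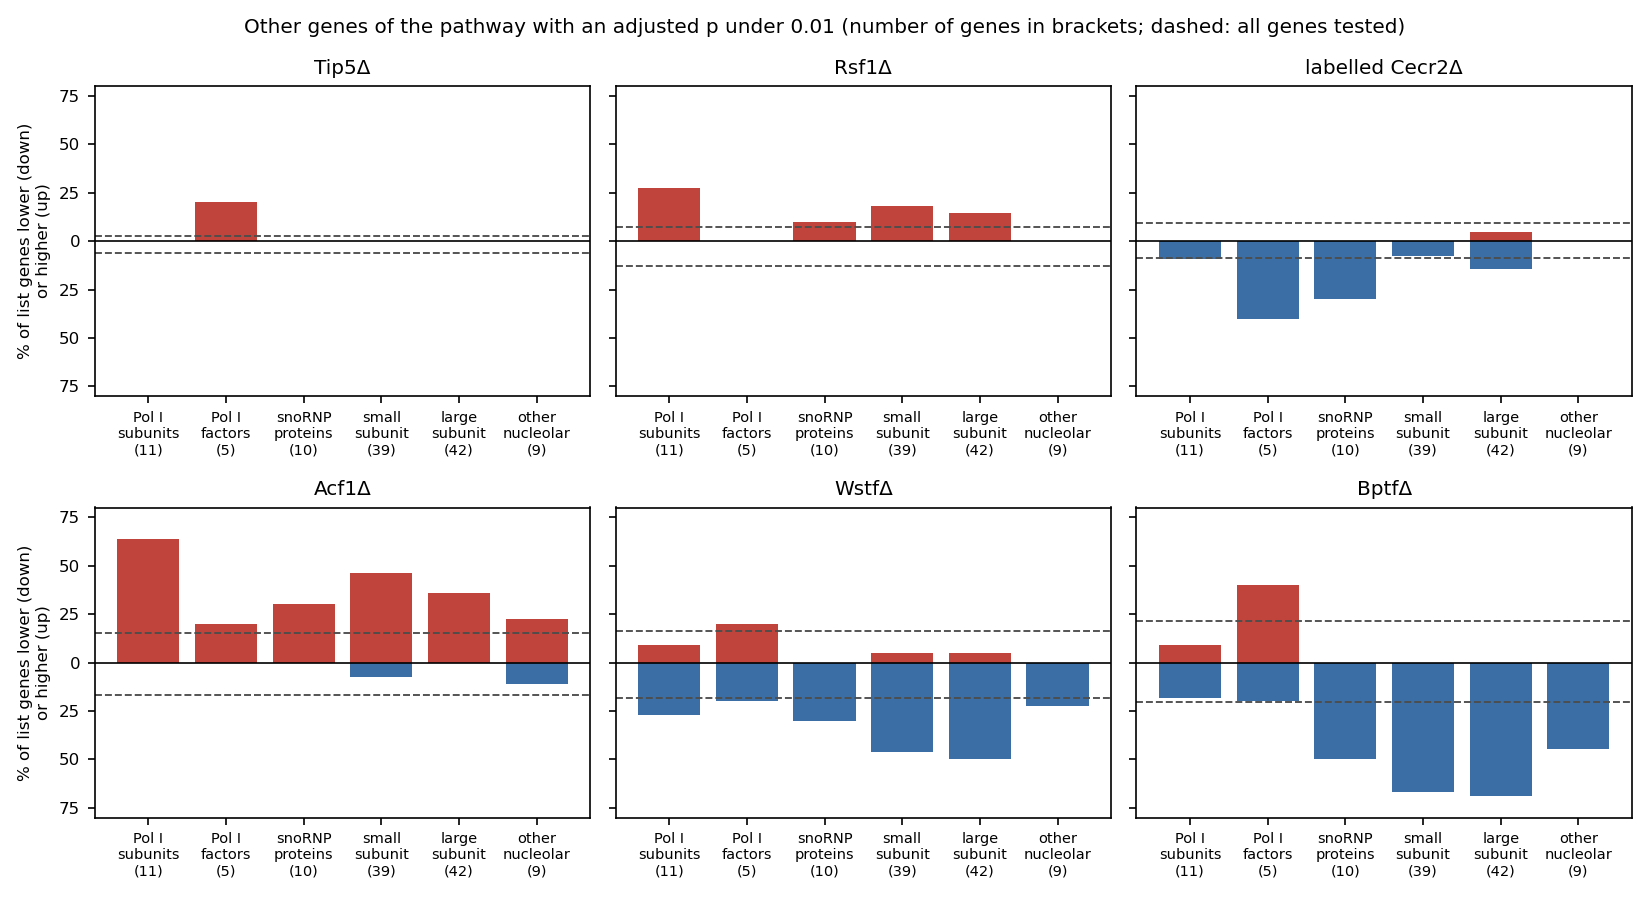
Percent of the genes of 6 pathway lists, without the 10 genes, that rose (red, upward) or fell (blue, downward) in each line with an adjusted p under 0.01 (edgeR); numbers of genes stand in brackets and dashed lines give the percent over all genes tested. Falls in both processing lists exceed the dashed line in WstfΔ and BptfΔ, rises in most lists exceed it in Acf1Δ, and Tip5Δ has a bar only for the factor list, from 1 of 5 genes.

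In BptfΔ 26 of 39 small subunit factors and 29 of 42 large subunit factors fell, and none rose, where 20.2% of all genes fell and 21.4% rose. Utp14a, a small subunit processome protein, was at 69.3 and 68.7 normalized CPM against 118 and 121 in WT (log2 fold change -0.80 ± 0.077, SE, adjusted p = 1.59e-09, edgeR). Rrp1b, a nucleolar protein of large subunit maturation, was at 152 and 157 against 286 and 285 (-0.88 ± 0.060, SE, adjusted p = 1.78e-12). Pdcd11 (-0.77), needed for small subunit processing, and Mdn1 (-0.78), the large ATPase of pre-60S particles, fell too. In the list of other nucleolar proteins Urb2 (-0.58) and Urb1 (-0.40) fell.

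In WstfΔ 18 of 39 small subunit factors fell and 2 rose, and 21 of 42 large subunit factors fell and 2 rose. Utp14a was at 60.7 and 66.7 normalized CPM against 109 and 113 in WT (-0.80 ± 0.078, SE, adjusted p = 2.98e-09, edgeR). Wdr3 (-0.55), Ddx18 (-0.57), an RNA helicase, and Mrto4 (-0.51) fell with it, as did the nucleolar proteins Urb2 (-0.24) and Ddx21 (-0.21). In both lines more genes of these lists fell than of all genes tested, where 18.3% fell in WstfΔ and 20.2% in BptfΔ.

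In Acf1Δ 18 of 39 small subunit factors rose and 3 fell, and 15 of 42 large subunit factors rose and none fell, where 15.1% of all genes rose and 16.7% fell. Emg1, an rRNA methyltransferase, was at 211 and 243 normalized CPM against 134 and 142 (0.72 ± 0.060, SE, adjusted p = 7.01e-10, edgeR). Ddx56, a helicase of large subunit assembly, was at 156 and 152 against 83.7 and 97.9 (0.76 ± 0.065, SE, adjusted p = 9.67e-10). Bop1 (0.66), Noc4l (0.53), Nop10 (0.54) and Npm3 (0.35) rose, and Mki67 (-0.42), a proliferation marker of the nucleolus and chromosome surface, fell.

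Gene width moved with the changes of Acf1Δ. The fifth of all tested genes with the shortest width had a median log2 fold change of 0.09 and the fifth with the longest -0.16, and in the other 5 lines these medians lay between -0.07 and 0.05. The split was larger in Acf1Δ replicate 2 (0.10 and -0.24) than in replicate 1 (0.00 and -0.06). Rpph1 was at 2.58 and 3.39 normalized CPM in Acf1Δ against 0.184 and 0.148 in WT. The part of either in the rises was not tested. From the longest to the shortest width, the log2 fold changes of the 10 genes in Acf1Δ were 0.35 for Polr1a, -0.30 for Ncl, -0.11 for Taf1d, -0.03 for Ubtf, 0.54 for Polr1b, 0.09 for Rrn3, 0.10 for Nop56, 0.73 for Taf1c, -0.01 for Npm1 and 0.59 for Fbl.

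In Rsf1Δ 7 of 39 small subunit factors and 6 of 42 large subunit factors rose and none fell, where 7.45% of all genes rose. Nat10, the acetyltransferase of 18S rRNA, was at 359 and 362 normalized CPM against 224 and 232 in WT (0.66 ± 0.056, SE, adjusted p = 4.98e-10, edgeR), and Senp3 (0.59), Nol6 (0.48) and Ddx51 (0.34) rose with it. Under the Cecr2Δ label 3 of 39 small subunit factors fell, among them Nob1 (-0.24) and Tsr1 (-0.19), which is below the 8.83% of all genes that fell. Of 42 large subunit factors 6 fell and 2 rose, with Mrto4 (-0.29) and Nip7 (-0.28) among the falls. In Tip5Δ none of these processing factors passed, with medians of 0.06 and 0.07, where 2.84% of all genes rose and 6.23% fell.

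Genes that silence rDNA or mark its chromatin were looked at beside these lists. Of 10 listed, none passed in Tip5Δ, where 2.84% of all genes rose and 6.23% fell. Ttf1, which binds the rDNA terminator and recruits NoRC, was at 44.3 and 41.7 normalized CPM in Tip5Δ against 40.3 and 42.8 in WT (log2 fold change 0.05). Baz2a itself rose in WstfΔ, at 637 and 646 against 404 and 466 (0.56 ± 0.092, SE, adjusted p = 1.47e-05, edgeR), and fell in Acf1Δ (-0.42, adjusted p = 0.000604). rRNA precursors were not analysed here.

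WSTF has its own link to Pol I, so the change in WstfΔ was tested against the mean change of the 4 lines of other batches. Rsf1Δ was left out since it shares WT libraries with WstfΔ. Of the 10 genes 6 had a lower change in WstfΔ, where 11.7% of all genes did. None had a higher change, where 12.3% of all genes did. The differences on the log2 scale were -0.54 ± 0.11 for Taf1d (SE, adjusted p = 0.000298, edgeR), -0.44 ± 0.062 for Polr1b (SE, adjusted p = 3.76e-06) and -0.44 ± 0.11 for Taf1c (SE, adjusted p = 0.00287). Fbl (-0.39), Nop56 (-0.25) and Rrn3 (-0.20) had lower changes as well. Against the own WT, Fbl (-0.19, adjusted p = 0.0140, edgeR) and Rrn3 (-0.15, adjusted p = 0.0225) did not pass in WstfΔ. The mean of those 4 lines held rises in Acf1Δ of Fbl (0.59), Taf1c (0.73) and Polr1b (0.54) and in Tip5Δ of Fbl (0.28). It also held falls in BptfΔ of Polr1b (-0.47), Taf1d (-0.46) and Nop56 (-0.20) and under the Cecr2Δ label of Taf1c (-0.43) and Taf1d (-0.27). Of the other pathway genes 29 of 116 were lower and 2 higher.

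The genes with the most similar profiles were found by Pearson's r over the 24 libraries, after the WT mean of each batch had been subtracted. The r describes these libraries, which share clones and batches. For Polr1a they were Slc30a4 (r = 0.98) and Ptcd3 (0.97), the latter its neighbour on the chromosome. For Polr1b they were Nit2 and Wdr47 (0.96 each), for Taf1c Ap5z1 (0.95) and Armc6 (0.94), for Taf1d Abcb1a (0.93) and Sntb1 (0.92), for Rrn3 Gen1 (0.87) and Bcl6b (0.86) and for Ubtf Mrpl41 (0.90) and Cirbp (0.89). For Ncl they were Ola1 (0.97) and Eif5b (0.96), for Npm1 Chchd1 (0.94) and Vrk1 (0.91), for Fbl Smyd2 (0.93) and Med22 (0.91) and for Nop56 Zc3h8 (0.94) and Ccnl1 (0.93). None of these 20 was one of the 10 genes. Within the 10, r was highest between Ncl and Npm1 (0.84) and between Taf1c and Fbl (0.81) and lowest between Polr1a and Ubtf (-0.58).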

How the data were processed

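RNA-seq libraries of mESCs (24) were analysed. The authors aligned reads to mm10 with QuasR and Rhisat2 and deposited raw counts per gene of the UCSC knownGene annotation, in 1 table of 24594 genes that also holds each gene's width in bases. The submitters' processing notes list bcl2fastq 2.17 and HISAT2. How reads of overlapping genes, of either strand or with several matches were counted is not given in the sources used here. Per the labels the libraries are stranded and poly(A)-selected, while the methods name another TruSeq kit, and batch C holds RNAs without a poly(A) tail. Without a stated strand, reads of overlapping genes such as those at Taf1d and Taf1c cannot be told apart. The methods call replicates independent. P-values measure the spread between these libraries.

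Of the gene IDs, 24570 matched RefSeq (GRCm38.p6), which gave symbols and positions. In R 4.3.3, edgeR 4.0.16 filtered genes (filterByExpr), scaled libraries (TMM) and fitted the quasi-likelihood model with batch and genotype over all 24 libraries. A gene was called at a Benjamini-Hochberg adjusted p under 0.01 over 15682 genes. The SE was derived from the log2 fold change and its F statistic (absolute value over the root of F). In data simulated for Tip5Δ over 15270 genes, 87 of 100 genes with a log2 fold change of 0.5 and 100 of 100 with 1 were called, with 2 false calls. Depth was 13.4 to 36.7 M counts, and 1 clone per line was sequenced.

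Groups came from the labels. The 10 genes and all lists were chosen with earlier results of these data known. Named by rule were the 10 genes, in each list and line at most the 2 genes with the largest change among those called whose libraries all lay beyond all WT libraries, the check lists, and for each of the 10 the 2 genes with the most similar profile among genes above 10 normalized CPM. Genes named as neighbours and snoRNA hosts were chosen after their values were seen. Alternatives were other scalings, no filter, the newer edgeR form, DESeq2 1.42.0, only the own WT libraries, no batch term, a replicate block and leaving out each library. Protein sequences were not used here.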

Additional observations from a re-analysis of the deposited data

Results flagged for a closer look

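Among the 10 genes, 2 differences in response for Tip5Δ and 6 for WstfΔ passed a test of the difference itself (edgeR). Over all genes 8.08% had a higher and 7.85% a lower change in Tip5Δ. In WstfΔ 12.3% had a higher and 11.7% a lower change. In Tip5Δ the change of Polr1a lay 0.53 above the mean change of the other 5 lines on the log2 scale (adjusted p = 6.17e-05), and that of Ncl 0.44 above it (adjusted p = 0.000691). Without BptfΔ the value was 0.30 for Polr1a (adjusted p = 0.0159) and 0.40 for Ncl (adjusted p = 0.00261). In WstfΔ the change lay below the mean change of the 4 lines of other batches for Taf1d (-0.54), Polr1b (-0.44), Taf1c (-0.44), Fbl (-0.39), Nop56 (-0.25) and Rrn3 (-0.20). The weakest of these, Rrn3 (adjusted p = 0.00841), did not pass when libraries were scaled by size alone (0.0140), with DESeq2's size factors (0.0113) or with no filter on low counts (0.0171). Against the own WT, Fbl and Rrn3 did not pass in WstfΔ. Each line is 1 clone, so a difference between lines and one between clones cannot be told apart.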

How the results depend on the processing

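Of the values given for the 10 genes under the alternatives, 417 kept their direction and side of the threshold, 57 no longer passed, 6 newly passed, 24 untested values moved by more than the spread between libraries and 21 changed direction. Of the counts of genes called, 129 stayed close to the reported count (within a factor of 1.5), 46 were lower and 11 higher. In each case the cause was not tested unless stated.

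With the minimum of a log2 fold change over 1, the count of the 10 genes called was 1 in BptfΔ and 0 in each other line. With no batch term, where WT libraries of all batches enter as 1 group, it was 0 in Rsf1Δ, Tip5Δ, Acf1Δ and under the Cecr2Δ label, 1 in WstfΔ and 3 in BptfΔ, and for the 116 pathway genes 1, 0, 1, 2, 8 and 29 in the same order. Over all 15682 genes the calls then fell as well, to 253, 276, 348, 1192, 1199 and 4911 from 3225, 1423, 4985, 2878, 5444 and 6523, so the drop is not particular to the 10 genes. With only the own WT libraries the count of the 10 genes was 5 in Tip5Δ, 3 in Acf1Δ and 1 under the Cecr2Δ label. For the 116 pathway genes it was 27 in Rsf1Δ, 29 in Tip5Δ, 24 in Acf1Δ and 10 under the Cecr2Δ label. Over all genes 3871 of 14576 passed in Rsf1Δ in that fit, 24.6% in Tip5Δ, 16.9% in Acf1Δ and 13.6% under the Cecr2Δ label. In Tip5Δ 2 of the 10 passed at an adjusted p under 0.05 and 3 with no filter. Of the pathway genes 2 passed by library size only, 2 by DESeq2's size factors, 11 with no filter and 4 by DESeq2. Over all genes 2481 of 15682 passed at 0.05 and 1834 of 21010 with no filter. By library size only 1440 of 15682 passed, by DESeq2's size factors 1450 and by DESeq2 1476 of 15073. The count of the 10 genes that set Tip5Δ apart from the other lines was 4 by DESeq2's size factors, 4 with no filter and 1 without BptfΔ. Over all genes it was 2512 of 15682, 2958 of 21010 and 2019 of 15682 in the same order.

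Reversals came mostly with no batch term. In Tip5Δ the median became -0.10, Polr1a -0.12, Polr1b -0.23, Ubtf -0.077, Taf1d -0.80, Rrn3 -0.34 and Nop56 -0.0371. The median under the Cecr2Δ label became 0.07, in Acf1Δ Polr1a became -0.0558, Polr1b -0.0628 and Ncl 0.0914, and in BptfΔ Taf1d became 0.83 and Nop56 0.0181. By library size only, Polr1b (-0.00656), Taf1d (-0.0164) and Rrn3 (-0.0143) lay below 0 in Tip5Δ.

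Leaving out 1 library at a time, the count of the 10 genes ranged from 1 to 2 in Rsf1Δ, 0 to 1 in Tip5Δ, 1 to 3 under the Cecr2Δ label, 3 to 5 in Acf1Δ, 3 to 4 in WstfΔ and 3 to 4 in BptfΔ. That of the pathway genes ranged from 9 to 14, 0 to 1, 8 to 25, 36 to 48, 35 to 39 and 56 to 61. In each of these fits fewer of all genes were called than with all libraries, so such losses are not particular to these genes. In Tip5Δ Taf1c ranged from -0.0955 to 0.0598 and Taf1d from -0.0183 to 0.0713, and the median under the Cecr2Δ label from -0.123 to 0.0136.

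Replicate numbers did not pair the samples (correlations of same-numbered libraries from -0.207 to 0.073). With a replicate block 1 of the 10 passed under the Cecr2Δ label, and calls were lost for Nop56 in Rsf1Δ (adjusted p = 0.0114, edgeR) and BptfΔ (0.0108), Taf1d under the Cecr2Δ label (0.0358), Ncl in Acf1Δ (0.0110) and Taf1c in WstfΔ (0.0112). Over all genes 2370 of 15682 passed under the Cecr2Δ label with the block. With the numbers of batch E crossed, an alternative chosen after seeing the data, 5 of the 10 and 53 pathway genes passed in Acf1Δ. Over all genes 5119 of 15682 did. With 2 or 3 libraries a group, a p that misses the threshold does not show that levels were alike.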
